A study of Mus musculus with 12 samples.

Results

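Srf knockout (KO) cardiomyocytes (CMs) collected at postnatal day 90 (P90) were compared with KO CMs collected at P14. The comparison used 6 of the 12 mouse samples of the study, 3 of each age, chosen by genotype and age alone. KO animals carried floxed Srf on both chromosomes (Srf-flox/flox), whereas the control (CTRL) animals of the other 6 samples carried a floxed and an intact copy (Srf-flox/+). All 4 groups, CTRL included, carried a fluorescent reporter that Cre switches on, and all received AAV9-cTNT-Cre, an adeno-associated virus in which the cardiac troponin T promoter drives Cre recombinase in CMs. The dose per body weight was low, so that the hearts were mosaic and most neighbouring CMs kept Srf. Animals of the P14 groups were injected at P1 and those of the P90 groups at P60, which left 13 and 30 days between injection and collection, and the virus was given under the skin to pups and into the abdominal cavity to adults. The cells were freed by collagenase perfusion and sorted for fluorescence, a gate that shows that Cre acted on the reporter but not that every sorted cell lost both Srf copies. Age at collection, age at Srf loss, route of injection, time since the virus and count table all differed together between the KO groups, and their shares in any difference below cannot be told apart.

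SRF is a DNA-binding factor of the MADS-box family that binds the CArG box, a site of CC, a run of A or T bases and GG. Myocardin and the related factors Mkl1 and Mkl2 join SRF on genes of the actin cytoskeleton and contractile apparatus, and the ternary complex factors Elk1, Elk3 and Elk4 join it on immediate early genes. In the weeks after birth CMs leave the cell cycle, exchange fetal for adult sarcomere proteins, build transverse tubules and expand the mitochondria that burn fatty acids.

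KO libraries held 16689997 to 18215520 counts at P14 and 12888456 to 23103460 counts at P90, and a count of 3 equalled 0.13 to 0.233 CPM. Levels below are in CPM, counts divided by library totals scaled with TMM over the 12 samples, and are not corrected for gene length. A log2 fold change is P90 minus P14 in KO samples, from edgeR's quasi-likelihood test over those 6 samples. Its SE, given after ±, is the absolute log2 fold change divided by the square root of that test's F statistic. A gene was called at a Benjamini-Hochberg adjusted p under 0.05. Over all 12417 genes tested, 27.6% were called higher and 29.0% lower at P90, the background for the counts below. All 10 CM markers were detected in every KO library, and their summed level was 71789 to 78442 CPM at P14 and 87326 to 89232 CPM at P90. Markers of other cells were present at far lower summed levels, and some differed by age. The 10 fibroblast markers summed to 200.1 to 355.9 CPM at P14 and 53.8 to 74.3 CPM at P90, with 5 of 9 tested markers lower at P90. The 12 endothelial markers summed to 401.4 to 662.7 and 306.7 to 475.1 CPM, with 6 of 12 lower. The 8 smooth muscle and pericyte markers summed to 383 to 595 and 200.4 to 210.3 CPM, with 2 of 8 lower and 1 higher. Acta2, also an SRF cytoskeletal target, had the most counts among them, 17699 over the P14 and 5720 over the P90 libraries. The 10 leukocyte markers summed to 9.9 to 14.9 and 11 to 13.3 CPM, with 1 of 6 tested markers lower and 1 higher. The erythroid markers in the table summed to 1.06 to 1.2 and 0.0628 to 0.238 CPM, of which Alas2 alone was tested and was lower at P90 (log2 fold change -3.07). The alpha and beta globin genes were listed at 0 in all 6 libraries, but they are near-identical copies and the multimapping setting is not given in the sources used here. In bulk samples fewer cells of a type and less RNA per cell cannot be told apart. KO P14 replicate 3 stood apart from the other KO libraries, with 4005 Y-linked counts where no other KO library had more than 1. It had 20 counts of Xist, the RNA of the inactive X chromosome, where the others had 179 to 1915. By these counts it was the only KO library of male pattern, but the labels do not give sex, and the part of sex was not tested. Among CTRL libraries this pattern was seen in CTRL P14 replicate 1 (4756 Y-linked and 4 Xist counts) and CTRL P90 replicate 3 (3299 and 0). KO P14 replicate 3 was also the lowest of the 3 in 66.7% of the SRF cytoskeletal targets tested, against 35.8% of all genes. Of the genes named below, Cdkn1b, Cpt1b, Flnc, Fos, Klhl34, Rbl1 and Xirp2 lost their KO call without it, and Myh7, Nppb and Xist gained one.

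Srf (mm10 chr17:46546839-46556162, minus strand) was measured at 32.1, 27.5 and 9.75 CPM at P14 and 32.9, 28.9 and 28.1 CPM at P90 in KO cells. The KO groups overlapped, and 5 of the 6 libraries lay close together, KO P14 replicate 3 being the low one. The log2 fold change was 0.38 ± 0.40 (edgeR adjusted p = 0.451), and 0.01 ± 0.13 without that library (edgeR adjusted p = 0.933). In CTRL cells Srf was 56.8 ± 7.26 CPM at P14 and 70.5 ± 11 CPM at P90 (mean ± SD, n = 3), so that the KO mean was 40.7% of the CTRL mean at P14, or 52.4% without KO P14 replicate 3, and 42.5% at P90. These counts cover all exons of Srf and do not separate the floxed part from the rest.

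Genes of SRF and its cofactors were called in both directions. Of the 10 genes in this list 2 were higher and 3 were lower at P90, beside 27.6% and 29.0% of all genes. These counts do not set so short a list apart from all genes. Myocd, which encodes the CM- and smooth muscle-restricted coactivator myocardin, was at 375, 289 and 349.6 CPM at P14 and 87.2, 133 and 149.5 CPM at P90, with every P90 value below every P14 value (log2 fold change -1.45 ± 0.19, edgeR adjusted p = 2.6e-04). Mkl2, a myocardin-related factor, fell from 52, 49.7 and 51.1 CPM to 23.7, 24.8 and 25.6 CPM (-1.04 ± 0.09, edgeR adjusted p = 1.05e-05). Its CTRL change was -0.35 ± 0.15 (edgeR adjusted p = 0.103), and the KO change minus the CTRL change was -0.69 ± 0.16 (edgeR adjusted p = 0.0473), or -0.32 with gene length corrected (edgeR adjusted p = 0.324). Elk3 was also lower (-0.52 ± 0.17), a call lost when any of 4 KO libraries was left out. The LIM-domain protein gene Fhl2 (0.45 ± 0.11) and the homeobox factor gene Nkx2-5 (0.43 ± 0.12) were higher. Mkl1, Elk1, Elk4 and Gata4 did not pass the test, with log2 fold changes from -0.31 to 0.41.

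The promoters of several SRF-linked genes hold a CArG box, and a few promoters that hold a box are printed here as a description. The sequences are RefSeq windows of GRCm38.p6 (mm10) upstream of the gene's start, 5′ to 3′ on the gene's strand, with CArG boxes in capitals. Srf itself has 2 boxes, beginning 82 and 62 bases before its start, the actin genes Actc1 and Actg1 have a box 47 and 90 bases before theirs, and Dusp5 has 2 adjoining boxes 82 and 72 bases before its start. Fhl2, Myl9 and Cnn2 have a box 96, 161 and 56 bases before the start.
Srf (chr17:46556180-46556279, minus strand): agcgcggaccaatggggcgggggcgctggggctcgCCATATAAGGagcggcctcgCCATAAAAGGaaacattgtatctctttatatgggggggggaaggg
Actc1 (chr2:114052878-114052957, minus strand): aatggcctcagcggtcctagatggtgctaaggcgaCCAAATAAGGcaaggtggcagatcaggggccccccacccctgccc
Actg1 (chr11:120348541-120348620, minus strand): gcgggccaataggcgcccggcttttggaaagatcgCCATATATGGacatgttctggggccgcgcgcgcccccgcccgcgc
Dusp5 (chr19:53529028-53529117, plus strand): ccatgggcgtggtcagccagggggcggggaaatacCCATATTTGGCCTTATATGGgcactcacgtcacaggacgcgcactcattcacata
Fhl2 (chr1:43196813-43196892, minus strand): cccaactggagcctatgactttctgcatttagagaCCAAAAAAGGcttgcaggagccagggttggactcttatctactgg
Myl9 (chr2:156775268-156775347, plus strand): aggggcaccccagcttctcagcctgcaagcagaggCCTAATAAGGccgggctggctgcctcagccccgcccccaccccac
Cnn2 (chr10:79988509-79988588, plus strand): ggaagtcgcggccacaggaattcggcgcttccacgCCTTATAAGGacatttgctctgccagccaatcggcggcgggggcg

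Among all 32851 promoter windows, from 250 bases before to 50 after the start and on both strands, 1.63% held a CArG box. A window was matched for 8883 of the genes tested in KO cells, and 148 of these held a box. Of these 148 genes 27.7% were higher and 33.8% lower at P90, beside 27.8% and 28.6% of all genes with a window. Among genes with a window, a box was held by 7 of 16 SRF cytoskeletal targets and 2 of 8 SRF immediate early targets. A match of letters is a description and not a bound site.

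The stage difference in KO cells was broad. Of the genes tested 7026 were called (56.6%), 3426 higher at P90 and 3600 lower, and 2626 of the called genes differed by more than a log2 unit. In 64.5% of the tested genes the 3 P90 values did not overlap the 3 P14 values. The same contrast in CTRL cells, which shares no sample with it, called 3623 of 12294 genes (29.5%), 1788 higher (14.5%) and 1835 lower (14.9%). Replicate spread differed between genotypes at P14, the median within-group SD of log2(CPM + 1) being 0.136 in KO P14, 0.143 in KO P90, 0.199 in CTRL P14 and 0.15 in CTRL P90, and a count of calls depends on this spread as well as on the size of the differences. Across the 12117 genes tested in both genotypes, the median absolute log2 change was 0.477 in KO and 0.352 in CTRL cells, and 80.2% of genes had the same sign. The log2 changes of KO and CTRL cells correlated across these genes (Pearson r = 0.858, Spearman rho = 0.812; genes are not independent replicates). Of the genes called in both genotypes, 3010 changed in the same direction and 17 in opposite directions. The shared calls were 84.6% of the CTRL calls and 44.2% of the KO calls.

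**Figure D1:**
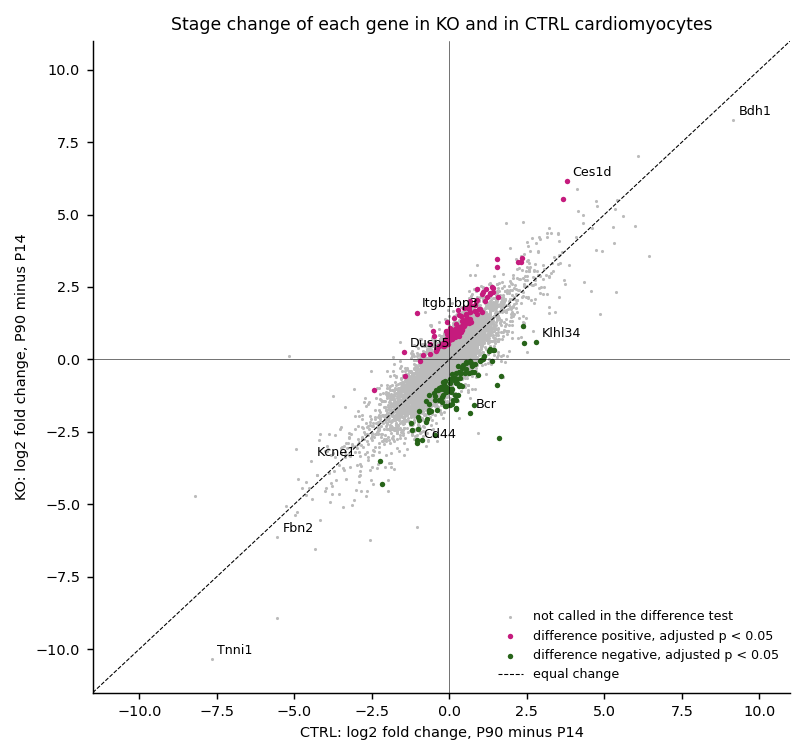
Log2 fold change from P14 to P90 in KO cells (y axis) against that in CTRL cells (x axis) for the genes tested in both, with coloured points for those whose change differed between the genotypes (pink, KO change above CTRL; green, below) at an edgeR adjusted p under 0.05. Most genes lie along the diagonal (Pearson r = 0.858 over 12117 genes), with Ces1d and Itgb1bp3 above it and Bcr and Klhl34 below it.

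The 12 largest increases included Bdh1, Ces1d and the channel subunit genes Scn4b, Kcnv2 and Cacna1s. Bdh1 (mm10 chr16:31422297-31458901), the mitochondrial enzyme that converts the ketone body beta-hydroxybutyrate, was at 0.319, 0.287 and 0.303 CPM at P14 and 105, 86.9 and 90.9 CPM at P90. No other gene named by rank rose as much, with a log2 fold change of 8.25 ± 0.17 (edgeR adjusted p = 3.01e-09), and CTRL cells had 0.313 ± 0.111 CPM at P14 and 180.5 ± 49.6 CPM at P90. Ces1d, a carboxylesterase of lipid metabolism, went from 3.56, 2.30 and 1.57 CPM to 166, 182 and 177 CPM (6.15 ± 0.21, edgeR adjusted p = 2.41e-07). The KO groups of Bdh1 and of Ces1d lay far apart. Scn4b, a sodium channel beta subunit, Kcnv2, a modifier subunit of voltage-gated potassium channels, and Cacna1s, the calcium channel of skeletal muscle, were higher by 5.45, 5.13 and 4.17 on the log2 scale. Hspa1b, an inducible heat shock protein, was 26.5-fold higher at P90 by mean CPM, with 1.06, 2.73 and 0.910 CPM at P14 and 52.8, 49.8 and 22 CPM at P90. Cpxm2, Arc, Acsl6, Mal and Mgst1 were also among the 12 largest increases, at 4.24 to 4.61.

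The 12 largest decreases included Tnni1, the matrix genes Fbn2, Eln and Vcan and the growth factor gene Igf2. Tnni1 (mm10 chr1:135799421-135810989), the slow skeletal troponin I of the fetal heart, was at 294, 315 and 589.8 CPM at P14 and 0.0628, 0.323 and 0.555 CPM at P90, the P90 values resting on 15 counts over the 3 libraries. All P14 libraries were far above all P90 libraries (log2 fold change -10.35 ± 0.53, edgeR adjusted p = 8.95e-06). CTRL cells had 60.7 ± 27.5 CPM at P14 and 0.319 ± 0.114 CPM at P90 (-7.66 ± 0.52), and the difference between the genotypes was not called (-2.69 ± 1.45, edgeR adjusted p = 0.358). Fbn2 and Eln, which encode the elastic fibre proteins fibrillin-2 and elastin, were at 145, 141 and 194 CPM at P14 and 1.32, 2.49 and 3.02 CPM at P90 and at 87.1, 142 and 102 CPM at P14 and 3.02, 3.04 and 2.30 CPM at P90, respectively. Vcan, a matrix proteoglycan, Adamts19, a secreted metalloprotease, and the secreted glycoprotein gene Fstl1 had log2 fold changes of -5.08, -5.04 and -4.00. The fibroblast markers were lower at P90 as well, and their part in these matrix values was not tested. Eef1a1, which encodes the translation elongation factor eEF1A1, fell from 285, 248 and 305 CPM to 19.3, 19.4 and 13.9 CPM (-3.98 ± 0.15, edgeR adjusted p = 1.65e-07). Eef1a2, the isoform of adult muscle and neurons, was higher at P90, from 99.7, 110.1 and 93.5 CPM to 362, 239 and 268 CPM (1.52 ± 0.15, edgeR adjusted p = 3.28e-05), a gene named after its values were seen. Rgs11, Igf2, Marcksl1, Sntb1 and Mtap1a, whose exons overlap Ppip5k1, had log2 fold changes between -4.56 and -4.00.

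**Figure D2:**
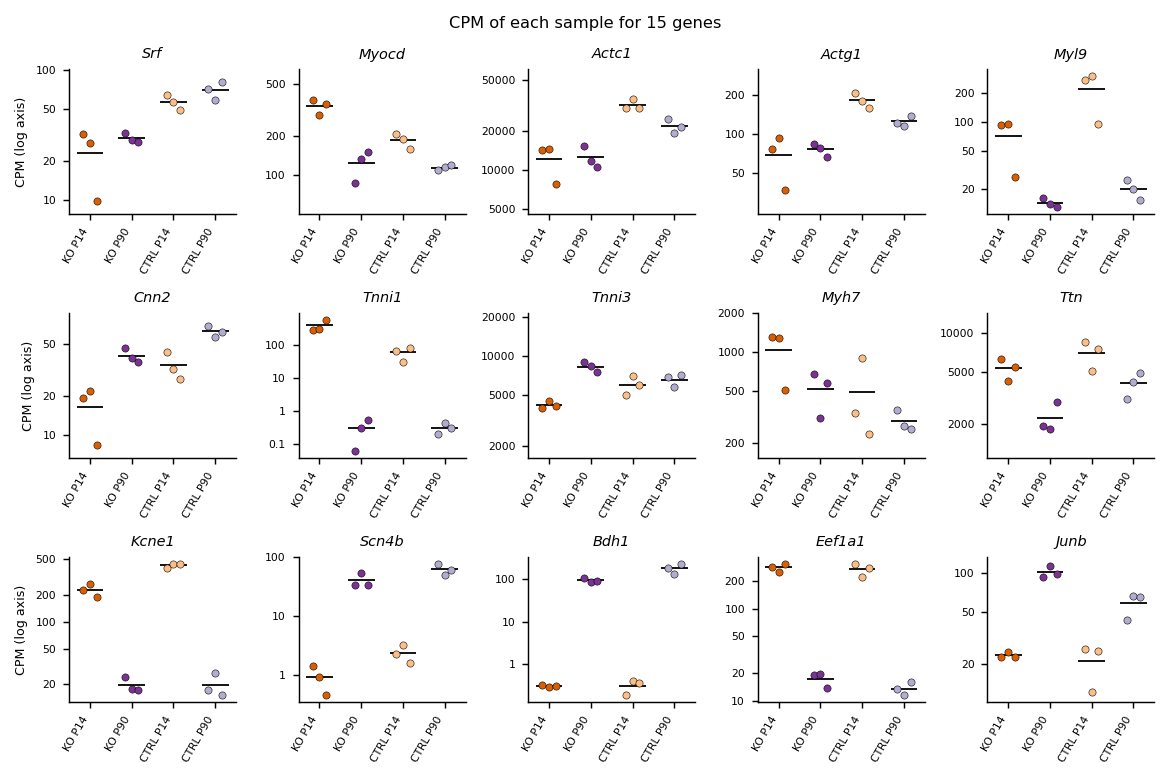
CPM of each of the 12 samples (log y axes) for 15 genes, in KO P14, KO P90, CTRL P14 and CTRL P90 groups of 3, with a bar at each group mean. Tnni1, Kcne1 and Eef1a1 are high at P14 and low at P90 in both genotypes, Bdh1 and Scn4b are the reverse, and the lowest of the 3 KO P14 points for Srf, Myl9, Cnn2 and Myh7 is replicate 3.

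Sarcomere proteins of the adult heart were unevenly placed. Of 10 mature isoform genes 4 were higher (40.0%) and 1 was lower (10.0%) at P90, beside 27.6% and 29.0% of all genes. Tnni3, the adult cardiac troponin I, was at 3918, 4442 and 4093 CPM at P14 and 8878, 8373 and 7426 CPM at P90, with no overlap (0.99 ± 0.11, edgeR adjusted p = 4.8e-05), whereas CTRL cells held 5964 ± 996 CPM at P14 and 6541 ± 724 CPM at P90 (0.14 ± 0.14). The KO change exceeded the CTRL change by 0.85 ± 0.18 (edgeR adjusted p = 0.0381), or by 0.47 with gene length corrected (edgeR adjusted p = 0.0902). Cardiac troponin C gene Tnnc1 was at 1108, 1142 and 629.8 CPM at P14 and 2479.5, 2147 and 1730.1 CPM at P90 (1.15 ± 0.23, edgeR adjusted p = 0.00323), with KO P14 replicate 3 the lowest, and the change was 0.92 ± 0.15 without it. Troponin T gene Tnnt2 (0.46 ± 0.11) and ventricular light chain gene Myl2 (0.52 ± 0.13) were also higher, but Myl2 was at -0.08 ± 0.08 with gene length corrected. Ttn, the giant spring protein of the sarcomere, was lower, at 6368, 4264 and 5476 CPM at P14 and 1939, 1820.3 and 2954 CPM at P90 (-1.26 ± 0.21, edgeR adjusted p = 9.93e-04). Ttn is among the longest genes, and with the trend of counts on gene length removed in each sample its direction turned, to 0.74 ± 0.19. Myh6, the adult myosin heavy chain of the mouse heart, Mybpc3 and Tpm1 did not pass the test, and the KO groups of each overlapped.

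Of 8 tested genes for immature isoforms 4 were lower and none was higher. Besides Tnni1 these were the smooth muscle actin gene Acta2 (-1.39 ± 0.28), Myl9 and the slow skeletal troponin T gene Tnnt1 (-0.50 ± 0.13). Myh7, the fetal myosin heavy chain, was at 1307, 1289 and 510.4 CPM at P14 and 677, 313 and 578 CPM at P90 and the groups overlapped (-0.98 ± 0.44, edgeR adjusted p = 0.1), whereas without KO P14 replicate 3 it was called, at -1.30 ± 0.29 (edgeR adjusted p = 0.00896). Per kilobase of exon, the log2 ratio of Tnni1 to Tnni3 was -3.88 ± 0.57 at P14 and -13.06 ± 0.40 at P90 in KO cells (mean ± SD, n = 3), a shift of -9.18, beside -5.58 in CTRL cells. The ratio of Myh7 to Myh6 on the same scale was -5.21 ± 0.82 and -6.34 ± 0.66, a shift of -1.13 against SDs of that order, beside -0.51 in CTRL cells. The ratios of Myl7 to Myl2 and of Myl4 to Myl3 went the other way. They shifted by 1.58 and 0.38 in KO cells, with SDs of 0.46 to 2.33, and by 3.82 and 2.28 in CTRL cells. The atrial light chains went with single libraries, Myl7 being at 24.1, 8.95 and 0.0505 CPM at P14 and 64, 15.7 and 17.4 CPM at P90, and neither it nor Myl4 passed the test. Myl7 and Sln, both atrial genes, were lowest in KO P14 replicate 3 and highest in KO P90 replicate 1, and the 8 atrial markers summed to 318.9 to 1194 CPM at P14 and 151.7 to 650 CPM at P90.

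SRF cytoskeletal targets were mostly lower or not called. Of 18 genes 8 were lower (44.4%) and 1 was higher (5.56%), beside 29.0% and 27.6% of all genes, with a median log2 fold change of -0.46 in KO and -0.61 in CTRL cells. Myl9, a regulatory myosin light chain of smooth muscle and nonmuscle cells, was at 92.8, 95 and 26.4 CPM at P14 and 16.1, 13.7 and 12.9 CPM at P90 (-2.32 ± 0.50, edgeR adjusted p = 0.00846). All P90 values were below all P14 values, the nearest being KO P14 replicate 3, and without it the change was -2.71 ± 0.12. The call was lost without KO P90 replicate 3. Flna, the actin crosslinker filamin A, and Zyx, the focal adhesion protein zyxin, fell by 2.16 ± 0.29 and 1.76 ± 0.11 on the log2 scale. Tagln2 (-1.18 ± 0.16), Acta2, Dstn (-0.54 ± 0.11), Vcl (-0.48 ± 0.10) and Fhl1 (-0.30 ± 0.10) were the other genes that were lower. Cnn2, which encodes the actin-binding protein calponin 2, was the gene that was higher, at 19.2, 21.9 and 8.29 CPM at P14 and 46.9, 38.8 and 36.4 CPM at P90 (1.31 ± 0.33, edgeR adjusted p = 0.0122), and at 0.99 ± 0.14 without KO P14 replicate 3.

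The striated actins did not pass the test. Actc1, the cardiac alpha-actin, was at 14270, 14707 and 7789 CPM at P14 and 15380, 11815 and 10526 CPM at P90 in KO cells, and the groups overlapped (0.04 ± 0.25, edgeR adjusted p = 0.897, and -0.20 ± 0.16 without KO P14 replicate 3). In CTRL cells it was at 32008 ± 3281 CPM at P14 and 21825 ± 2803 CPM at P90 (-0.55 ± 0.12, edgeR adjusted p = 0.0109). Cytoplasmic gamma-actin gene Actg1 was at 76.8, 92.3 and 37 CPM at P14 and 83.5, 78.1 and 66.9 CPM at P90 (0.16 ± 0.31, edgeR adjusted p = 0.699), with KO P14 replicate 3 below the other 5, and without it the value was -0.14 ± 0.13 (edgeR adjusted p = 0.366). Skeletal alpha-actin gene Acta1 was at 226, 408 and 117 CPM at P14 and 572, 261 and 404 CPM at P90, with wide spread at both ages (0.73 ± 0.49, edgeR adjusted p = 0.256), whereas in CTRL cells it was called higher (2.01 ± 0.37). None of the 18 targets was called in the test of the difference between KO and CTRL changes, which called 1.93% of all genes. At that share a list of 18 genes is too short for a lack of calls to set it apart. In the same edgeR test 4 of the 18 had an unadjusted p under 0.05, beside 2417 of all 12841 genes.

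Genes of the Z-disc and of the intercalated disc were called in both directions. In the Z-disc and M-band list 5 of 20 were higher (25.0%) and 6 lower (30.0%), near the 27.6% and 29.0% of all genes. Myot, which encodes the Z-disc protein myotilin, was at 15.8, 12.6 and 12.2 CPM at P14 and 132, 126 and 126 CPM at P90, a 9.44-fold difference of the means (3.24 ± 0.12, edgeR adjusted p = 1.65e-07), and Tcap, the titin cap telethonin, was higher by 0.89 ± 0.16. Synpo2l (-0.91 ± 0.09), Ankrd1 (-1.12 ± 0.21) and Actn2 (-0.38 ± 0.10) were lower. Flnc, filamin C of the Z-disc, and Xirp2, an actin-binding repeat protein, moved in opposite directions in the genotypes. Flnc was at 736, 612 and 639 CPM at P14 and 369.7, 499 and 603 CPM at P90 in KO (-0.43 ± 0.16, edgeR adjusted p = 0.0478) and at 378 ± 68.4 CPM at P14 and 660.3 ± 118 CPM at P90 in CTRL cells (0.80 ± 0.18). Xirp2 was at 325, 228 and 321 CPM at P14 and 164, 190.3 and 240.4 CPM at P90 in KO (-0.55 ± 0.17, edgeR adjusted p = 0.0212) and at 138 ± 18.4 CPM at P14 and 259.7 ± 41.5 CPM at P90 in CTRL cells (0.92 ± 0.15). KO P90 replicate 3 overlapped the P14 range of Xirp2. The difference between the changes was -1.24 ± 0.26 for Flnc (edgeR adjusted p = 0.0378) and -1.47 ± 0.25 for Xirp2 (edgeR adjusted p = 0.0191). The KO calls of both were lost when single libraries were left out, and with gene length corrected the KO changes were 0.09 ± 0.10 and 0.15 ± 0.09 and the differences -0.89 (edgeR adjusted p = 0.0419) and -0.99 (edgeR adjusted p = 0.0136).

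Of 15 intercalated disc genes 8 were lower and 3 higher. The alpha-catenins Ctnna3 and Ctnna1, which tie cadherins to actin, fell by 1.39 ± 0.12 and 0.81 ± 0.10, and Ctnnb1 (-0.50 ± 0.10), the junction protein gene Tjp1 (-0.69 ± 0.12) and the desmosomal cadherin gene Dsc2 (-0.56 ± 0.10) were lower too. Des, the intermediate filament desmin, was at 2052, 2014 and 1713 CPM at P14 and 3309, 3111 and 2861 CPM at P90 (0.69 ± 0.11, edgeR adjusted p = 5.1e-04), with no overlap. Gja1, the gap junction protein connexin 43, was higher by 0.38 ± 0.12. With gene length corrected the median of this list was -0.02 rather than -0.28, and 6 genes were lower. Without KO P90 replicate 2 the calls dropped to 7 in this list and to 5 in the Z-disc list.

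Calcium handling genes went both ways. In the calcium handling and T-tubule list 5 of 20 were higher (25.0%) and 5 lower (25.0%), near the 27.6% and 29.0% of all genes. Atp2a2, the pump SERCA2 that refills the sarcoplasmic reticulum, was at 16637, 13909 and 13136 CPM at P14 and 26397, 28835 and 26015 CPM at P90 (0.90 ± 0.12, edgeR adjusted p = 1.5e-04), and its inhibitor phospholamban, Pln, was higher by 0.65 ± 0.09. Hrc (0.68 ± 0.13) and the dyad protein gene Jph2 (0.53 ± 0.14) were higher as well. Cacna1g, a T-type calcium channel of immature CMs, was at 107, 137 and 159.7 CPM at P14 and 23.1, 24.9 and 26.5 CPM at P90 (-2.43 ± 0.15, edgeR adjusted p = 1.52e-06), and CTRL cells had 50.5 ± 5.14 CPM at P14 and 21.9 ± 1.66 CPM at P90. Cacna1c, the L-type channel, was at 248, 231 and 275 CPM at P14 and 148, 179 and 215 CPM at P90 in KO (-0.47 ± 0.14, edgeR adjusted p = 0.0134) and higher at P90 in CTRL cells (0.38 ± 0.11). The KO change minus the CTRL change was -1.24 ± 0.20 for Cacna1g (edgeR adjusted p = 0.0191) and -0.85 ± 0.18 for Cacna1c (edgeR adjusted p = 0.0321). The exchanger gene Slc8a1 (-0.58 ± 0.10), Cav3 (-0.61 ± 0.12) and Itpr2 (-2.03 ± 0.26) were lower, and the release channel gene Ryr2 did not pass the test (-0.32 ± 0.17). Several of these are long genes, and with gene length corrected 10 genes of this list were higher and 3 lower, with a median of 0.37 rather than -0.08. The corrected values were 0.44 ± 0.14 for Slc8a1, 0.60 ± 0.09 for Ryr2 and 0.04 ± 0.08 for Cacna1c, whose difference from CTRL was then not called (-0.49, edgeR adjusted p = 0.0521), while Cacna1g stayed lower (-1.98 ± 0.15).

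Among 20 ion channel genes 9 were higher and 5 lower. Kcne1, the beta subunit of the slow delayed rectifier, was at 225, 263 and 190.4 CPM at P14 and 24.1, 17.8 and 17.1 CPM at P90, a drop of the means by a factor of 11.5 (-3.52 ± 0.17, edgeR adjusted p = 5.65e-07), beside -4.46 ± 0.21 in CTRL cells. Hcn4, the pacemaker channel, was at 17.2, 18 and 15.9 CPM at P14 and 5.84, 6.83 and 6.43 CPM at P90 (-1.41 ± 0.13, edgeR adjusted p = 1.91e-05). In CTRL cells it was at 7.96 ± 2.37 CPM at P14 and 8.74 ± 1.62 CPM at P90, and the difference between the changes was -1.55 ± 0.28 (edgeR adjusted p = 0.0205). Kcnd2 (1.46 ± 0.18) and Kcnip2, the channel and the subunit of the transient outward current, were higher. Kcnip2 had 26, 19.3 and 8.34 CPM at P14 and 50.8, 50.5 and 49.6 CPM at P90, again with KO P14 replicate 3 lowest, a 2.82-fold difference of the means (edgeR adjusted p = 0.0112). The log2 fold change was 1.16 ± 0.14 without that library, and with gene length corrected it was not called (1.08 ± 0.38, edgeR adjusted p = 0.0571).

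Mitochondrial genes were mostly higher at P90. Of 77 tested oxidative phosphorylation genes 72 were higher (edgeR, 93.5%) and 2 lower, with a median log2 fold change of 0.96 in KO and 0.22 in CTRL cells, beside -0.03 over all genes in KO. By complex, 35 of 36 genes of complex I, 9 of 9 of complex III, 12 of 15 of complex IV and 16 of 17 of the ATP synthase were higher. All 21 genes of the TCA cycle list were higher, with a median of 0.72 in KO and 0.14 in CTRL cells, and in all 21 the KO change was above the CTRL change. Sdhb, the iron-sulphur subunit of succinate dehydrogenase, was at 912, 834 and 762 CPM at P14 and 2273, 2002 and 1824 CPM at P90 (1.29 ± 0.12, edgeR adjusted p = 1.65e-05), and Dld, the shared E3 subunit of the 2-oxoacid dehydrogenases, was at 341, 317 and 306 CPM at P14 and 639.7, 661 and 670.1 CPM at P90 (1.04 ± 0.09, edgeR adjusted p = 1.29e-05). In CTRL cells Dld was at 692 ± 146 CPM at P14 and 701 ± 12.4 CPM at P90, and the difference between the changes was 1.01 ± 0.18 (edgeR adjusted p = 0.0191). Of 76 mitochondrial ribosomal protein genes 73 were higher and none was lower, with a median of 0.69 in KO and 0.11 in CTRL cells. The CTRL P14 libraries were spread in these lists. By the median over a list's genes of log2 CPM minus the gene's 12-sample mean, oxidative phosphorylation was at -0.12, 0.40 and -0.31 in CTRL P14. In CTRL P90 it was at 0.35, 0.10 and 0.21. CTRL P14 replicate 2 lay above every CTRL P90 library there and in the TCA cycle (0.29) and mitochondrial ribosomal (0.28) lists.

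With the trend on gene length removed, the medians of most of these lists were smaller. The oxidative phosphorylation median was 0.55, with 63 genes higher and 4 lower, and the mitochondrial ribosomal median 0.44, with 55 higher and 1 lower. The TCA cycle list had a median of 0.70, with all 21 higher. The median KO change minus CTRL change was smaller too. It went from 0.758 to 0.330 for oxidative phosphorylation, from 0.625 to 0.364 for mitochondrial ribosomal genes and from 0.678 to 0.514 for the TCA cycle. Of 80 cytosolic ribosomal protein genes 53 were higher and 2 lower (median 0.51, CTRL -0.04), but after the correction 19 were higher and 15 lower, with a median of 0.06. The cytosolic ribosomal genes also have many processed pseudogenes that could share reads, and their values are uncertain.

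Fatty acid genes were mostly higher too. Of 30 genes of fatty acid uptake and oxidation 21 were higher and 4 lower, with a median of 0.63 in KO and 0.05 in CTRL cells. Acadm, medium-chain acyl-CoA dehydrogenase, was at 931, 913 and 784 CPM at P14 and 1864, 1899 and 1736 CPM at P90 (1.07 ± 0.10, edgeR adjusted p = 2.38e-05), Echs1, the enoyl-CoA hydratase, at 226, 234 and 204 CPM at P14 and 608, 606 and 553 CPM at P90 (1.42 ± 0.10, edgeR adjusted p = 3.09e-06), and Etfa and Etfb, the electron carriers of beta-oxidation, were higher by 1.22 ± 0.11 and 1.00 ± 0.11. Lpl, the lipase that frees fatty acids from lipoproteins, was at 1797, 1563 and 1499.6 CPM at P14 and 6739, 6523 and 6663 CPM at P90 (2.04 ± 0.11, edgeR adjusted p = 7.49e-07), beside a CTRL change of 1.69 ± 0.12. The genes that were lower were Cpt1a (-0.94 ± 0.12) and Cpt1b (-0.37 ± 0.13), the liver and muscle forms of the carnitine transferase, of which Cpt1b lost its call under 8 of 13 alternatives, the acyl-CoA thioesterase gene Acot1 (-1.04 ± 0.27) and Pdk4 (-1.35 ± 0.25), the kinase that shuts off pyruvate dehydrogenase. In 8 of these 30 genes the KO change was above the CTRL change in the test of the difference, Acadvl, Acadm, Hadhb, Echs1, Etfa, Etfb, Eci1 and Decr1, and in none was it below. The differences ran from 0.75 ± 0.18 for Decr1 (edgeR adjusted p = 0.0487) to 0.83 ± 0.14 for Echs1 (edgeR adjusted p = 0.0191). The same test called 8 TCA cycle, 8 oxidative phosphorylation and 7 mitochondrial ribosomal genes, all with a larger KO change, beside 138 of 12841 genes with a positive difference (1.07%). These counts depended on the processing and on single libraries. Over all genes, the positive differences ranged from 1 without KO P90 replicate 2 to 244 without CTRL P14 replicate 3. They numbered 2 without CTRL P90 replicate 3 and 84 without CTRL P14 replicate 2. DESeq2 called 20, 45 and 39 genes of the 3 lists, edgeR with DESeq2 size factors 11, 15 and 14, and edgeR with gene length corrected 8, 6 and 3, with no negative difference.

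Of 15 tested genes of mitochondrial biogenesis and dynamics 10 were higher and 2 lower, and with gene length corrected 11 were higher and none was lower. The coactivator gene Ppargc1a was lower, at 268, 223 and 195 CPM at P14 and 176, 164 and 172 CPM at P90 (-0.42 ± 0.12, edgeR adjusted p = 0.0128), and the nuclear factor gene Nrf1 was lower too (-0.49 ± 0.12). Neither was called with gene length corrected, Ppargc1a being at -0.10 ± 0.12 (edgeR adjusted p = 0.47) and Nrf1 at -0.28 ± 0.12 (edgeR adjusted p = 0.061). The nuclear receptor genes Esrra (1.10 ± 0.10) and Rxrg were higher, Rxrg being at 41.6, 41.4 and 25.3 CPM at P14 and 172, 143 and 126 CPM at P90 (2.03 ± 0.20, edgeR adjusted p = 6.53e-05). Its KO change was above that of CTRL by 1.36 ± 0.26 (edgeR adjusted p = 0.0251). Esrrg was at 91.4, 83.5 and 82.8 CPM at P14 and 78.1, 86.5 and 84.8 CPM at P90 in KO cells, with overlap (-0.04 ± 0.09, edgeR adjusted p = 0.696), but higher at P90 in CTRL cells (0.66 ± 0.11), and the difference was -0.70 ± 0.13 (edgeR adjusted p = 0.0229). The fusion genes Mfn1 (1.03 ± 0.11), Mfn2 (0.49 ± 0.10) and Opa1 (0.96 ± 0.11) and the fission gene Dnm1l (0.66 ± 0.09) were all higher.

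Genes of ketone and branched-chain amino acid use were higher in 14 of 15 cases, with a median of 1.48 in KO and 1.02 in CTRL cells. Oxct1, the rate-limiting enzyme of ketone body use, was at 386, 422 and 335 CPM at P14 and 1646, 1591 and 1402 CPM at P90 (2.03 ± 0.12, edgeR adjusted p = 1.23e-06). Bckdhb, a subunit of the branched-chain ketoacid dehydrogenase, was at 20.7, 21.2 and 20.3 CPM at P14 and 92.6, 87 and 79.8 CPM at P90, values that differed little within an age beside the gap between ages. Its activating phosphatase gene Ppm1k was higher by 2.03 ± 0.10. Genes of glycolysis and glucose uptake were higher in 15 of 19 cases and lower in 2. Slc2a4, the insulin-responsive transporter GLUT4, was at 228, 249 and 163 CPM at P14 and 1033, 948 and 834 CPM at P90 (2.14 ± 0.16, edgeR adjusted p = 6.03e-06), and Slc2a1, GLUT1, was higher by 1.71 ± 0.12. The lactate exporter gene Slc16a3 (-2.04 ± 0.23) and the phosphofructokinase gene Pfkp (-0.79 ± 0.10) were lower.

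**Figure D3:**
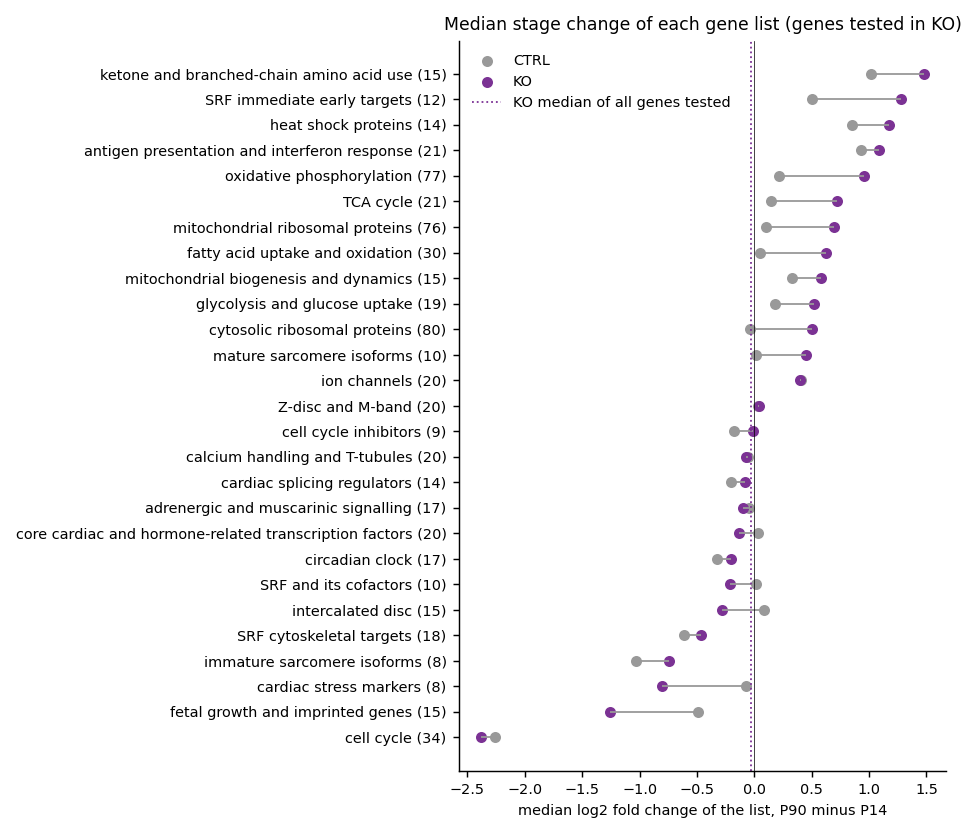
Median log2 fold change from P14 to P90 of each gene list other than the cell type markers in KO (purple) and CTRL (grey) cells, the number after each name being the genes tested in KO and each median being over the genes tested in that genotype. Among the lists shown the median is largest for ketone and branched-chain amino acid use (1.48 in KO) and lowest for the cell cycle (-2.38 in KO), and for oxidative phosphorylation it is 0.96 in KO and 0.22 in CTRL cells.

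Cell cycle genes were lower at P90 in 29 of 34 cases, by a median of -2.38 in KO and -2.26 in CTRL cells. Top2a, the topoisomerase of dividing cells, was at 6.44, 5.60 and 13.6 CPM at P14 and 0.251, 0.138 and 0.238 CPM at P90 (-5.36 ± 0.50, edgeR adjusted p = 2.45e-05), and Mki67, the proliferation marker, at 5.37, 7.37 and 14.3 CPM at P14 and 0.0628, 0.553 and 0.794 CPM at P90 (-4.27 ± 0.59, edgeR adjusted p = 4.23e-04). At P90 Top2a lay near the level of 3 counts and Mki67 at no more than 0.794 CPM, and at P14 replicate 3 was the highest for both. Without this library 28 genes were lower, with a median of -2.15. Ccnd2, a D-type cyclin, was lower at P90 but far from 0, at 190.3, 195 and 252 CPM at P14 and 110.1, 103 and 127 CPM at P90 (-0.90 ± 0.13). Cenpf was the gene that was higher (0.74 ± 0.19). Of 9 tested inhibitors of the cycle Cdkn1a (-0.96 ± 0.25), Cdkn1b (-0.78 ± 0.29) and Rbl1 (-1.35 ± 0.45) were lower and Rbl2 (0.62 ± 0.10) was higher, the calls of Cdkn1b and Rbl1 being lost without single libraries, KO P14 replicate 3 among them. Fibroblast markers were also lower at P90, and their part in the cell cycle values was not tested.

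Fetal growth and imprinted genes were lower in 11 of 15 cases. Igf2, the fetal growth factor, was at 26.8, 40.7 and 13.4 CPM at P14 and 1.01, 1.52 and 1.11 CPM at P90 (-4.43 ± 0.49, edgeR adjusted p = 2.49e-04), its exons overlapping Igf2as. Plagl1, an imprinted zinc finger gene, was at 31.4, 30.5 and 31.3 CPM at P14 and 3.20, 3.78 and 2.86 CPM at P90 (-3.22 ± 0.14, edgeR adjusted p = 3.67e-07), and H19, Peg3, Mest and Ndn had log2 fold changes from -4.43 to -2.22. Their CTRL changes lay between -4.75 and -2.03. Grb10, an imprinted inhibitor of insulin signalling, was at 287, 241 and 286 CPM at P14 and 109, 123 and 128 CPM at P90 (-1.18 ± 0.11, edgeR adjusted p = 1.48e-05), and its KO change minus that of CTRL was -0.69 ± 0.16 (edgeR adjusted p = 0.044). Impact (0.66 ± 0.12) and Hmga1 (1.27 ± 0.36) were the genes that were higher.

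**Figure D4:**
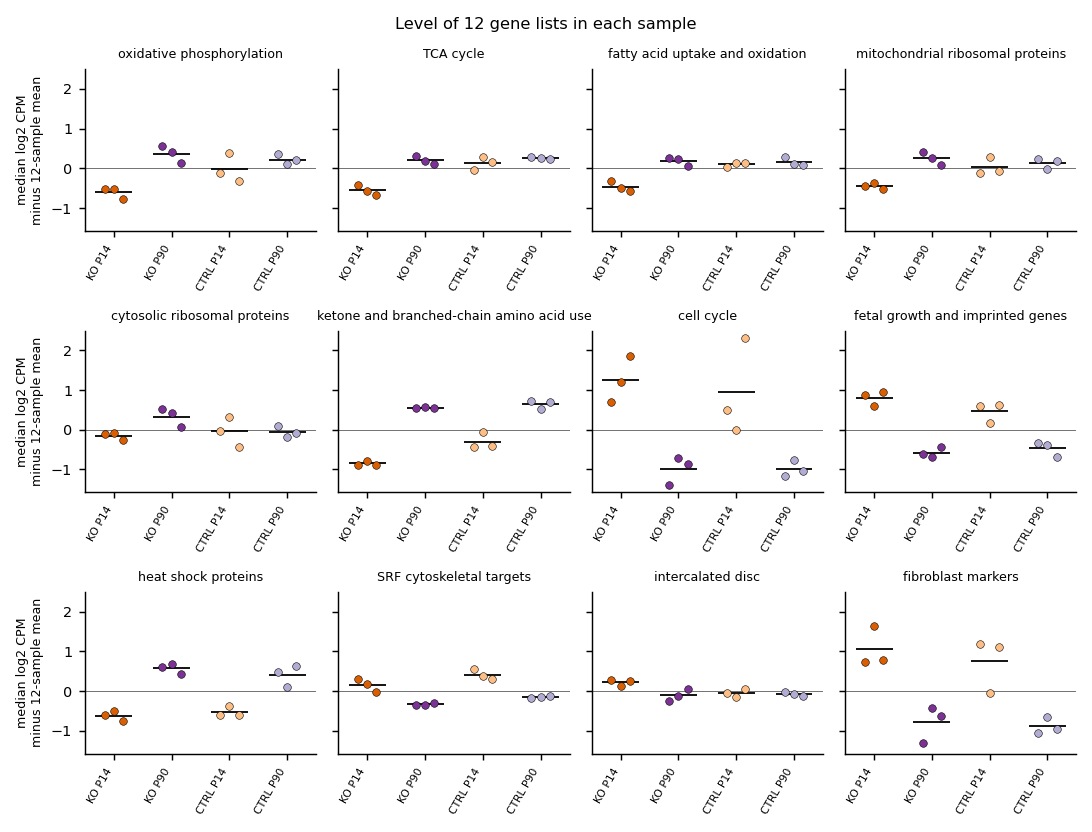
Level of 12 gene lists in each of the 12 samples, as the median over the list's genes of log2 CPM minus the gene's 12-sample mean, with a bar at each group mean. In KO cells the oxidative phosphorylation, TCA cycle and fatty acid lists lie lower at P14 than at P90 without overlap, and the cell cycle and fibroblast marker lists lie higher.

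Of 12 tested genes in the list of SRF immediate early targets 7 were higher, with a median of 1.27 in KO and 0.50 in CTRL cells. Their control by SRF was not tested here. Junb was at 22.7, 24.9 and 22.5 CPM at P14 and 93.8, 113 and 98.4 CPM at P90 (2.13 ± 0.10, edgeR adjusted p = 4.76e-07), Egr1 was higher by 2.92 ± 0.24 and Ier2 by 1.68 ± 0.17. Fos varied within each age, at 75.4, 199.5 and 98.5 CPM at P14 and 259, 538 and 372 CPM at P90 (1.65 ± 0.43, edgeR adjusted p = 0.0176), and its call was lost without KO P14 replicate 3 (1.51 ± 0.53, edgeR adjusted p = 0.0661). Cyr61 (1.44 ± 0.37), Dusp1 (1.11 ± 0.33) and Mcl1 (0.46 ± 0.10) were higher as well. Ctgf, a matricellular growth factor, was lower (-1.14 ± 0.13). Dusp5, a phosphatase that inactivates ERK and has 2 CArG boxes in its promoter, was at 9.42, 8.18 and 9.05 CPM at P14 and 11.6, 10.5 and 9.28 CPM at P90 with overlap in KO cells (0.25 ± 0.14, edgeR adjusted p = 0.17) and fell in CTRL cells, at 17.1 ± 2.15 CPM at P14 and 6.10 ± 1.62 CPM at P90 (-1.47 ± 0.22, edgeR adjusted p = 0.00168). The difference between the changes was 1.70 ± 0.26 (edgeR adjusted p = 0.0158).

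Heat shock genes were higher in 12 of 14 cases. Hspa1a, whose coding sequence is nearly that of Hspa1b so that reads may be shared, was at 2.87, 7.71 and 1.67 CPM at P14 and 74.8, 79.1 and 30.2 CPM at P90 (3.91 ± 0.63, edgeR adjusted p = 0.00262), with KO P90 replicate 3 the lowest of the P90 values for Hspa1a, Hspa1b and Dnajb1. Cryab, the small heat shock protein alpha B-crystallin, was at 716, 783 and 687 CPM at P14 and 2520, 2348 and 1870.2 CPM at P90 (1.63 ± 0.13, edgeR adjusted p = 6.51e-06). The mitochondrial chaperonins Hspd1 and Hspe1 were at 175, 176 and 171 CPM at P14 and 365, 375 and 359 CPM at P90 and at 28.2, 31.5 and 29.1 CPM at P14 and 90.0, 99.5 and 73.3 CPM at P90, respectively. Their KO change was above that of CTRL by 0.77 ± 0.14 (edgeR adjusted p = 0.0199) and 1.02 ± 0.24 (edgeR adjusted p = 0.0487). Hspb7, a CM chaperone of filamin C, was lower (-0.63 ± 0.11). Among 8 tested stress markers Ankrd1, Rcan1 and Gdf15 were lower. Rcan1, an inhibitor and target of calcineurin, was at 382, 417 and 472 CPM at P14 and 227, 281 and 308 CPM at P90 (-0.63 ± 0.13, edgeR adjusted p = 0.00204), and the difference from CTRL was -0.98 ± 0.22 (edgeR adjusted p = 0.0424). The natriuretic peptide gene Nppa was at 712, 1159.5 and 296 CPM at P14 and 464, 105 and 156 CPM at P90, with overlap (-1.58 ± 0.80, edgeR adjusted p = 0.155), and Nppb at 153, 168 and 57.9 CPM at P14 and 249, 221 and 237 CPM at P90, without overlap but with KO P14 replicate 3 low (0.91 ± 0.37, edgeR adjusted p = 0.0808). Without that library Nppb was called higher (0.56 ± 0.11, edgeR adjusted p = 0.00167).

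Antigen presentation and interferon response genes were higher in 15 of 21 cases and lower in none, with a median of 1.08 in KO and 0.93 in CTRL cells. B2m, the light chain of class I molecules, was at 23.4, 34.7 and 22.2 CPM at P14 and 103, 109 and 134 CPM at P90 (2.11 ± 0.18, edgeR adjusted p = 1.99e-05), and H2-K1, H2-D1 and Tap2 were higher by 0.97, 1.08 and 1.38 on the log2 scale. H2-K1 and H2-D1 are close paralogs that may share reads. Cd74, the invariant chain of class II molecules and a marker of antigen-presenting cells, was at 1.01, 0.957 and 0.455 CPM at P14 and 6.16, 3.04 and 5.32 CPM at P90 (2.57 ± 0.38). Without KO P14 replicate 3 the class II genes H2-Aa, H2-Ab1 and H2-Eb1 were higher too, by 2.81 ± 0.72, 2.57 ± 0.58 and 1.12 ± 0.38. The summed leukocyte markers given above overlapped between ages, with 1 of 6 tested higher and 1 lower. The part of leukocytes in these values was not tested. Clock genes were 7 lower (41.2%) and 2 higher (11.8%) of 17, beside 29.0% and 27.6% of all genes. Per2 fell by 2.75 ± 0.19 and Per1 by 1.57 ± 0.13 on the log2 scale, whereas Arntl (1.82 ± 0.26) and Nr1d1 (1.70 ± 0.11) were higher. The hour of collection is not given in the sources used here.

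Of 20 core cardiac and hormone-related transcription factor genes 5 were higher and 7 lower. Gata6 (-0.98 ± 0.09), Tbx20 (-0.87 ± 0.12), Hand2 (-0.62 ± 0.14) and the thyroid hormone receptor gene Thra (-0.54 ± 0.13) were lower, and Thrb (0.70 ± 0.11), Rxra (0.60 ± 0.12) and Klf15 (1.05 ± 0.15) were higher. Mef2a, Mef2c, Mef2d, Tbx5 and Tead1 had log2 fold changes between -0.16 and 0.14 and did not pass the test, Tead1 being at 0.47 ± 0.13 with gene length corrected. Of 17 adrenergic and muscarinic signalling genes 3 were higher (17.6%) and 5 lower (29.4%), beside the same 27.6% and 29.0% of all genes. The alpha-1A receptor gene Adra1a was at 2.29, 3.25 and 8.04 CPM at P14 and 19.1, 22.6 and 19 CPM at P90 (2.17 ± 0.40, edgeR adjusted p = 0.00308, and 2.87 ± 0.19 without KO P14 replicate 3), and the adenosine receptor gene Adora1 was lower (-1.77 ± 0.10). The beta-1 receptor gene Adrb1 did not pass the test (-0.17 ± 0.14). Of 14 splicing regulators 4 were higher (28.6%) and 5 lower (35.7%), near these shares of all genes, or 4 and 1 with gene length corrected. Rbm20, which controls titin splicing, was lower (-0.48 ± 0.11), a call lost with that correction (-0.17 ± 0.08, edgeR adjusted p = 0.0928), and Rbfox1 (1.05 ± 0.15) and Mbnl1 (0.46 ± 0.11) were higher. Rbpms2 was higher in KO (0.36 ± 0.10) and lower in CTRL cells (-0.39 ± 0.11), a difference of 0.75 ± 0.15 (edgeR adjusted p = 0.0251).

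The stage change of KO cells was then tested against that of CTRL cells in all 12 samples. Of 12841 genes 248 were called (1.93%), 138 with a positive difference (1.07%) and 110 with a negative difference (0.857%), and 2417 had an unadjusted p under 0.05. This count was not stable, ranging from 5 to 401 when a library was left out, with 5 without KO P90 replicate 2 and 10 without CTRL P90 replicate 3. Of 45 such genes named here, 3 were called whichever of the 12 libraries was left out, Asb14, Bcr and Slc25a23, and 36 were called with gene length corrected, those lost being Cacna1c, Esrrg, Mkl2, Grb10, Selenbp1, Eci1, Etfb, Tnni3 and Hspe1. Of the 138 genes with a positive difference 66 were higher at P90 in KO cells and not called in CTRL cells, 59 were higher in both genotypes and 7 were higher in KO and lower in CTRL cells. Of the 110 with a negative difference 55 were lower in KO and not called in CTRL cells, 23 were lower in both and 16 were not called in KO and higher in CTRL cells. In 236 of the 248 genes (95.2%) the gap between KO and CTRL means was larger at P14 than at P90, beside 61.9% of all genes. The median absolute gap of log2(CPM + 1) was 0.831 at P14 and 0.155 at P90 in these genes. The test selected the genes on these values, so the gaps are a description. Promoters with a CArG box held 6 of the called genes among 148 (4.05%), beside 1.96% of all genes with a promoter window, and these were Anxa5, Dusp5, Lgr4, Rap1gap2, Selenbp1 and Slc25a23.

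Among the largest positive differences, Itgb1bp3 (mm10 chr10:81198170-81202037), a nicotinamide riboside kinase of muscle, was at 37.5, 67.1 and 41.8 CPM at P14 and 134, 159 and 154 CPM at P90 in KO cells and at 39.7 ± 18.9 CPM at P14 and 19.2 ± 3.05 CPM at P90 in CTRL cells. Levels rose in KO and fell in CTRL cells (difference 2.67 ± 0.43, edgeR adjusted p = 0.0191). Ces1d rose in both genotypes, but CTRL P14 cells were already at 15, 27.7 and 16.7 CPM, above the KO P14 values (difference 2.35 ± 0.37, edgeR adjusted p = 0.0191). Asb14, a subunit of a ubiquitin ligase, was at 34.9, 25.7 and 26 CPM at P14 and 156, 159 and 153 CPM at P90 in KO and 90.7 ± 4.43 CPM at P14 and 168 ± 7.46 CPM at P90 in CTRL cells (difference 1.54 ± 0.16, edgeR adjusted p = 0.00178). Alas1, the rate-limiting enzyme of heme synthesis, was at 247, 273 and 189 CPM at P14 and 655, 559.6 and 525 CPM at P90 in KO and 547 ± 67.8 CPM at P14 and 517 ± 48.4 CPM at P90 in CTRL cells, so that KO P14 was the group that stood below the other 3 (difference 1.38 ± 0.21, edgeR adjusted p = 0.0158). Clcn1, the chloride channel of skeletal muscle, and Ybx2, an RNA-binding Y-box protein, had differences of 1.65 ± 0.31 and 1.40 ± 0.29.

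Among the largest negative differences, Bcr (mm10 chr10:75060896-75184923), a GTPase-regulating kinase, was at 13, 15.7 and 15 CPM at P14 and 4.90, 3.23 and 3.89 CPM at P90 in KO cells (-1.87 ± 0.18) and 1.75 ± 0.407 CPM at P14 and 2.76 ± 0.618 CPM at P90 in CTRL cells (difference -2.54 ± 0.33, edgeR adjusted p = 0.0084). Gnao1, an inhibitory G-protein alpha subunit, was at 39.8, 49.8 and 47.8 CPM at P14 and 14.4, 14.8 and 16.8 CPM at P90 in KO (-1.58 ± 0.12) and 6.56 ± 2.63 CPM at P14 and 11.3 ± 2.22 CPM at P90 in CTRL cells (difference -2.36 ± 0.34, edgeR adjusted p = 0.0146). KO P14 was the highest group of both genes. Cd44, a hyaluronan receptor, was at 88.8, 93.7 and 121 CPM at P14 and 9.36, 13.6 and 18.2 CPM at P90 in KO and 20.1 ± 4.05 CPM at P14 and 9.97 ± 2.69 CPM at P90 in CTRL cells (difference -1.85 ± 0.35, edgeR adjusted p = 0.0251). Mmp23, Hspa1l and Shisa4 had the same order, with KO P14 highest and differences of -2.13, -1.91 and -1.90. Ptk2b, a calcium-sensitive tyrosine kinase, and Klhl34 had another order, in which CTRL P14 was the low group. Ptk2b was at 10.6, 11.8 and 18.1 CPM at P14 and 11.9, 7.33 and 8.25 CPM at P90 in KO, with overlap, and 3.56 ± 1.07 CPM at P14 and 11.2 ± 1.35 CPM at P90 in CTRL cells (difference -2.21 ± 0.36, edgeR adjusted p = 0.0191), and Klhl34 differed by -2.20 ± 0.39. Cspg4, a proteoglycan that also marks pericytes, was at 115, 120 and 131 CPM at P14 and 17, 24.7 and 26.7 CPM at P90 in KO and 48.1 ± 16.9 CPM at P14 and 24.2 ± 1.83 CPM at P90 in CTRL cells (difference -1.42 ± 0.31, edgeR adjusted p = 0.0424). The other 7 smooth muscle and pericyte markers were not called in this test, which called 1.93% of all genes. At that share 7 genes are too few for a lack of calls to set them apart from Cspg4.

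**Figure D5:**
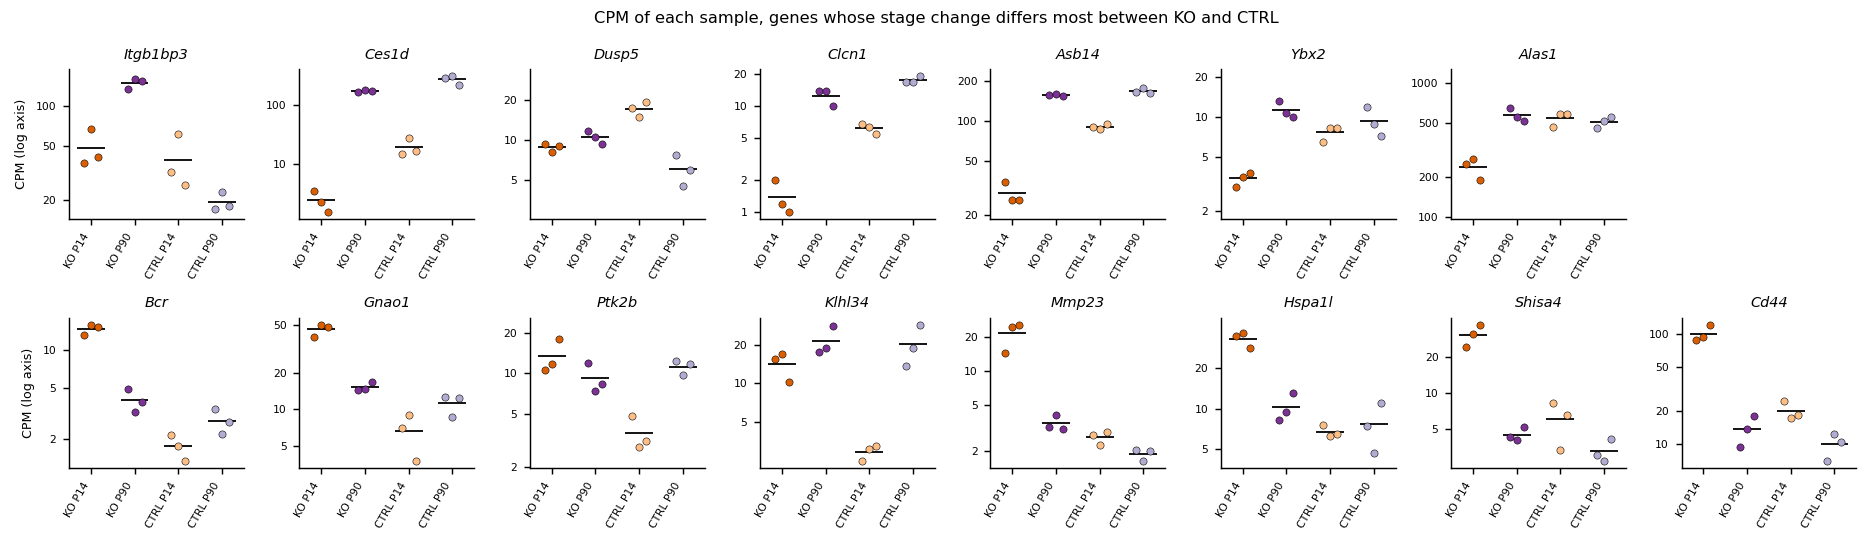
CPM of each of the 12 samples (log y axes) for 7 of the genes with the largest positive (top row) and the 8 with the largest negative (bottom row) difference between the KO and the CTRL change, with a bar at each group mean. KO P14 is the low group for Ces1d, Clcn1, Asb14, Ybx2 and Alas1 and the high group for Bcr, Gnao1, Mmp23, Hspa1l, Shisa4 and Cd44, while CTRL P14 is the low group for Klhl34 and Ptk2b.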

How the data were processed

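RNA of sorted CMs was measured by RNA-seq in 12 samples of 4 groups, with libraries made by SMART-Seq v4 amplification and a transposase kit, and 6 KO samples entered the main comparison. The authors deposited raw read counts per gene in 2 tables, a neonatal and an adult one, each with the total exon length of the gene. Per the labels' processing notes the tools included STAR 2.5.3a, Subread 1.5.2 and CASAVA 1.8, with the mm10 build, and no strand or multimapping setting is given in the sources used here. Both tables list the same 23337 genes and were joined by symbol. Of these, 2737 (11.7%) share exon positions with another gene, 25 symbols are written as dates, and none lies on the mitochondrial chromosome.

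Counts were tested with edgeR 4.0.16 in R 4.3.3 (limma 3.58.1), with filterByExpr, TMM scaling, a robust quasi-likelihood fit and Benjamini-Hochberg adjustment over all genes tested. KO P90 was tested against KO P14 in the 6 KO samples, CTRL P90 against CTRL P14 in the 6 CTRL samples, and the difference between the KO and the CTRL change in all 12. Alternatives were DESeq2 1.42.0, its size factors, upper-quartile scaling, no filter on low counts, at least 5 CPM in 3 samples, a per-sample loess trend on gene length as an offset, the replicate number as a block, and leaving out each library in turn. Per-length isoform ratios used a pseudocount of 1 CPM. Genes were named as list members and by rank, being the 12 largest changes in each direction among called genes that averaged 5 CPM or more and whose groups were apart in every sample, and the 8 largest called differences in each direction with that same minimum. A few genes that met these rules are not reported here. The members and lists were chosen with earlier results of these data known. The scripts were tested on simulated data. The study counts 3 hearts a group for these sorted cells, but the labels do not tie a library to a heart, and p-values measure the spread between these samples. Floors cover counting error only.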

Additional observations from a re-analysis of the deposited data

Results flagged for a closer look

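The results below are those of named genes whose stage change differed between KO and CTRL cells, by the interaction term of edgeR's quasi-likelihood test over the 12 samples at an adjusted p under 0.05. Each value is the KO change minus the CTRL change on the log2 scale, and the adjusted p-values of these 45 genes ran from 0.00178 for Asb14 to 0.0487 for Decr1.

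These genes had a KO change above the CTRL change. The values were 0.79 for Acadvl, 0.78 for Acadm, 0.77 for Hadhb, 0.83 for Echs1, 0.77 for Etfa, 0.83 for Etfb, 0.81 for Eci1 and 0.75 for Decr1, all of fatty acid oxidation. They were 0.81 for Sdhb, 1.01 for Dld, 1.36 for Rxrg, 0.77 for Hspd1 and 1.02 for Hspe1. Further positive values were 2.67 for Itgb1bp3, 2.35 for Ces1d, 1.70 for Dusp5, 1.65 for Clcn1, 1.54 for Asb14, 1.40 for Ybx2, 1.38 for Alas1, 0.85 for Tnni3, 0.75 for Rbpms2, 1.01 for Rap1gap2 and 0.68 for Selenbp1.

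The following genes had a KO change below the CTRL change. The values were -2.54 for Bcr, -2.36 for Gnao1, -2.21 for Ptk2b, -2.20 for Klhl34, -2.13 for Mmp23, -1.91 for Hspa1l, -1.90 for Shisa4, -1.85 for Cd44 and -1.42 for Cspg4. Channel genes had -1.55 for Hcn4, -1.24 for Cacna1g and -0.85 for Cacna1c, and genes of actin-binding proteins -1.47 for Xirp2 and -1.24 for Flnc. The others were -0.98 for Rcan1, -0.70 for Esrrg, -0.69 for Mkl2, -0.69 for Grb10, -1.10 for Slc25a23, -0.84 for Lgr4 and -0.67 for Anxa5. Without KO P90 replicate 2, Asb14, Bcr and Slc25a23 alone among the 45 were still called.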

How the results depend on the processing

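The comparison of KO P90 with KO P14 called 5876 to 7119 genes under the alternatives, and 5936 to 6637 when a library was left out, beside 7026. With upper-quartile scaling 3057 genes were higher and 3995 lower, beside 3426 and 3600. The CTRL comparison called 2080 (without CTRL P90 replicate 1) to 4795 (without CTRL P14 replicate 2) genes when a library was left out, beside 3623. The difference between the changes called 248 genes, 916 with DESeq2, 397 with at least 5 CPM in 3 samples, 382 with no filter on low counts and 5 to 401 when a library was left out. With the replicate number as a block (replicate block) it called 794 and the KO comparison 6607. Deviations of same-numbered samples from their group means correlated over genes by -0.07 to 0.05 between the KO ages, -0.21 to 0.04 between the CTRL ages, -0.05 to 0.26 between KO and CTRL at P14 and 0.065 to 0.32 at P90. No pair of groups had all 3 above 0.1, so the numbers were not taken to pair the samples.

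With gene length corrected, 8 named genes turned direction in KO cells, Cacna1c (0.042), Flnc (0.086), Myl2 (-0.075), Ryr2 (0.60), Slc8a1 (0.44), Tead1 (0.47), Ttn (0.74) and Xirp2 (0.15). Dusp1 and Elk3 also lost their call there, and Mkl1 and Myh6 gained one. Of 2593 values of 200 genes followed through up to 13 alternatives, 2495 kept their direction and side of the threshold, 75 lost and 15 gained a call. The log2 ratio of Tnni1 to Tnni3 moved from -9.18 to -11.04 with a pseudocount of 0.1 CPM. The cell cycle list held 12 called genes at a minimum of 5 CPM, since fewer of its genes were tested. Depth limits genes near 3 counts, 0.13 to 0.233 CPM, such as Tnni1, Top2a and H19 at P90, whose fold changes depend on few counts. Groups of 3 were too small for the test of single outlying samples. Stage, route, time since the virus and table cannot be told apart, and stranded overlap of genes was not resolved.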

Other observations

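These long noncoding RNAs were in no list and were named after their values were seen. Malat1, a nuclear RNA, was at 2788, 2998 and 2896 CPM at P14 and 1504, 1247 and 1429.6 CPM at P90 in KO cells (-1.05 ± 0.11, edgeR adjusted p = 2.98e-05), and Neat1, which builds paraspeckles, and Gas5, a host of small nucleolar RNAs, had log2 fold changes of -0.63 ± 0.12 and -0.68 ± 0.10. Kcnq1ot1, the imprinted antisense RNA of Kcnq1, was at 37.1, 25 and 41.9 CPM at P14 and 3.83, 5.21 and 13 CPM at P90 (-2.28 ± 0.45), and reads of the overlapping gene cannot be told apart without strand. Xist, the RNA of the inactive X chromosome, was at 102, 76.1 and 1.01 CPM at P14 and 12.8, 12.5 and 14.2 CPM at P90, the low P14 value being that of KO P14 replicate 3.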
